A study of Mus musculus with 180 samples.

Results

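AZD-1208 and SGI-1776 are small-molecule inhibitors developed against the PIM kinases, and their effects on RNA in activated macrophages are described here. All samples whose treatment label names either compound were taken, which gave 6 of the 180 RNA-seq samples of the series, 3 for each compound. The series profiled polyadenylated RNA in bone marrow-derived macrophages (BMDMs), primary cells grown from mouse marrow, under 58 clinical kinase inhibitors (CKIs) and the vehicle DMSO. Every sample, DMSO included, was of wild-type cells that had been pre-treated for 1 h and then stimulated for 2 h with lipopolysaccharide (LPS, 10 ng/ml), the bacterial product that activates the receptor TLR4. The groups used were AZD-1208 (n = 3), SGI-1776 (n = 3), DMSO (n = 6, in 2 sets of 3) and, for context, the other 56 CKIs (n = 168, 3 for each). The study's methods name young adult male C57/BL6 mice and independent biological replicates. Each compound was used at a concentration set by its affinity for an intended kinase in a bead-capture assay, PIM1 for AZD-1208 and IRAK3 for SGI-1776, and the concentration of SGI-1776 was the higher. Values for the compounds are therefore given side by side and were not tested against each other. Only this concentration and this time were sampled, and no comparison with unstimulated cells was made.

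PIM1, PIM2 and PIM3 are serine/threonine kinases that are active as soon as they are made, so that their activity follows the abundance of their mRNA and protein. Cytokine receptors induce them through JAK and STAT proteins, and LPS induces them through NF-κB. Their substrates include the pro-apoptotic protein BAD, the cell cycle inhibitor encoded by Cdkn1a and regulators of cap-dependent translation, and they are known to cooperate with MYC, the activator of ribosome production. In macrophages, LPS also induces interferon-β, which acts back on the cells through JAK and STAT and drives the interferon-stimulated genes.

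Values were the authors' exonic read counts per gene, scaled between samples and rounded, and are called normalized values. They summed to 9481416 to 12020134 per sample over the 12 AZD-1208, SGI-1776 and DMSO samples, and the steps between low values implied 10500000 to 13600000 counted reads, an estimate, so the samples were of similar depth. The SGI-1776 libraries were not alike. Transcripts of the mitochondrial genome took 3.694% and 3.333% of the total in SGI-1776 replicates 1 and 2 but 0.7826% in replicate 3, against 1.33%, 1.147% and 1.488% in AZD-1208 and 0.7595% to 1.945% in DMSO. The mean difference from DMSO was 1.45 percentage points for SGI-1776 (2-sided exact permutation test, p = 0.0714, Benjamini-Hochberg adjusted p = 0.315 over 6 comparisons) and 0.173 points for AZD-1208 (exact p = 0.56, adjusted p = 0.607), where 3 samples against 6 cannot give a p under 0.0238. The SD of log2 differences between genes was 0.217 for replicates 1 and 2, and 0.597 and 0.615 for each of them against replicate 3. Counts of called genes, and the medians of several gene lists under SGI-1776, are also given without these libraries.

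Of the 24 genes of the macrophage list, 0 were at 0 in all 12 samples, and their summed value was 166151 to 391867. Lyz2, a lysozyme gene and the most abundant of them, lay between 44126 and 145794 in all 12 samples. It was highest in SGI-1776 replicate 1, the sample that was also highest for the neutrophil list below. The lymphoid gene Pax5 and the erythroid genes Hba-a1 and Hba-a2 were at 0 in all 12, Cd3d and Cd3e reached at most 2, and the neutrophil surface marker Ly6g reached at most 3. Other members of these marker lists were detected at low values, with Lck of the T cell list at 17 to 99, Cd79b of the B cell list at 0 to 27, Xcr1 of the dendritic cell list at 36 to 84 and the collagen gene Col1a1 of the stromal list at 5 to 98. The granule genes of the 9-gene neutrophil list were present, and their summed value was 1818, 1686 and 457 in SGI-1776, 1172, 501 and 515 in AZD-1208 and 299 to 1009 in DMSO. Its most abundant gene, S100a8, an alarmin subunit of neutrophils and monocytes, was at 630, 630 and 123 in SGI-1776 and 405, 152 and 172 in AZD-1208. The neutrophil list was therefore high in the same SGI-1776 libraries as the mitochondrial transcripts, and its part in the results below was not tested. No gene of the list was called, and the median log2 difference of its 7 tested genes from DMSO was 0.47 for AZD-1208 and 0.99 for SGI-1776. The former ran from 0.261 to 0.645 in the alternatives tried, and the latter was 1.07, 0.82 and 1.49 without SGI-1776 replicates 1, 2 and 3 in turn. In RNA from whole cultures, fewer cells of a type and less RNA per cell cannot be told apart.

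**Figure D1:**
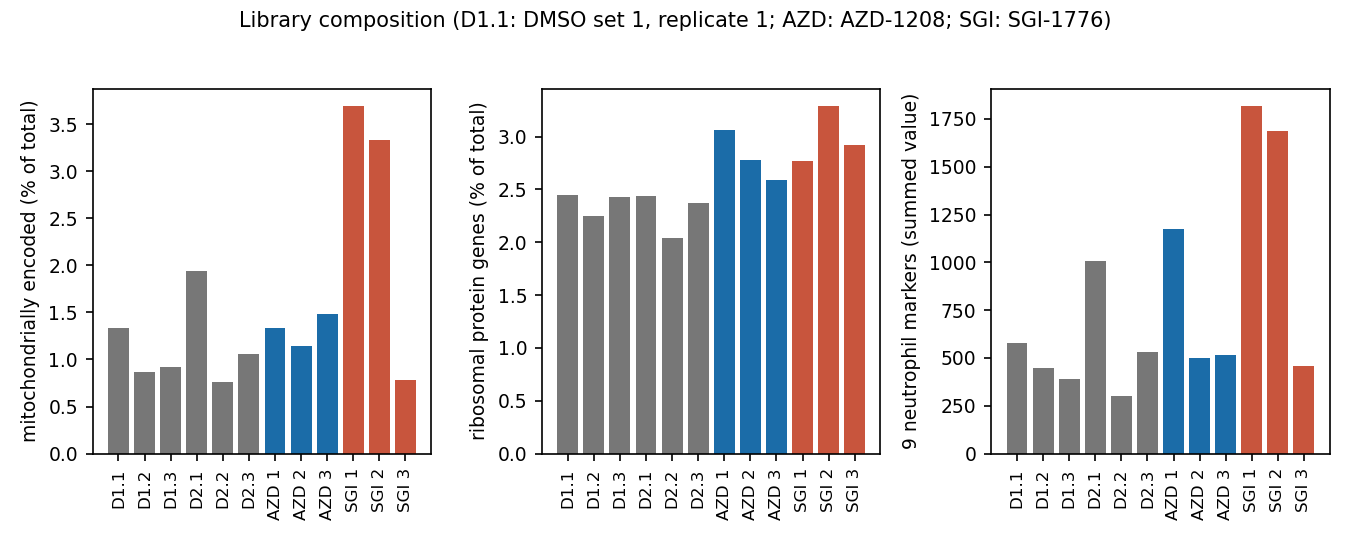
Library composition of the 12 samples, with a bar for each sample (grey DMSO, blue AZD-1208, red SGI-1776): mitochondrially encoded transcripts and ribosomal protein genes as percent of the total, and the summed normalized value of 9 neutrophil markers. SGI-1776 replicates 1 and 2 stand at 3.694% and 3.333% mitochondrial and at 1818 and 1686 for the neutrophil markers, while replicate 3 lies within the DMSO range for both.

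No difference in the mRNA of the target kinases passed the test for either compound. Pim1 was at 1646, 1096 and 620 in AZD-1208, 1888, 1801 and 788 in SGI-1776 and 287 to 1762 with a median of 798.5 in DMSO, so the 3 groups overlapped. Its log2 difference from DMSO was 0.44 ± 0.50 (SE) for AZD-1208 (limma, adjusted p = 0.801) and 0.86 ± 0.50 for SGI-1776 (adjusted p = 0.356). Pim2 was at 61, 76 and 85 in AZD-1208 and 53, 42 and 92 in SGI-1776, against 36 to 111 with a median of 84.5 in DMSO. Pim3 was low throughout, at 19, 20 and 23 in AZD-1208, 34, 10 and 54 in SGI-1776 and 10 to 31 with a median of 13.5 in DMSO, and its difference under SGI-1776 (0.83 ± 0.41) did not pass the test (adjusted p = 0.268). The median log2 difference of the 3 genes under SGI-1776 was 0.83, and 0.33 without SGI-1776 replicate 3, and under AZD-1208 0.44, and 0.11 without AZD-1208 replicate 1. Per kilobase of transcript, the level in DMSO was 346 for Pim1, 39.8 for Pim2 and 6.55 for Pim3, which made Pim1 the most abundant of the family.

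Irak3, which encodes an inhibitory member of the IRAK family below TLR4, was at 359, 464 and 552 in AZD-1208 and 413, 364 and 518 in SGI-1776, against 324 to 613 with a median of 470.5 in DMSO. Haspin, a mitotic histone kinase also annotated for SGI-1776, differed by -0.14 ± 0.28 in log2 under it (adjusted p = 0.837). Flt3, a cytokine receptor of dendritic cells and the remaining annotated target, was at 1 to 22 and fell below the minimum for testing. Ifnb1, the gene of interferon-β, was at 202, 140 and 127 in AZD-1208, 257, 313 and 111 in SGI-1776 and 75 to 262 with a median of 92.5 in DMSO. Its highest values were those of SGI-1776 replicate 2, DMSO set 2 replicate 1 and SGI-1776 replicate 1, and the difference of 0.92 ± 0.40 under SGI-1776 did not pass the test (adjusted p = 0.212).

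**Figure D2:**
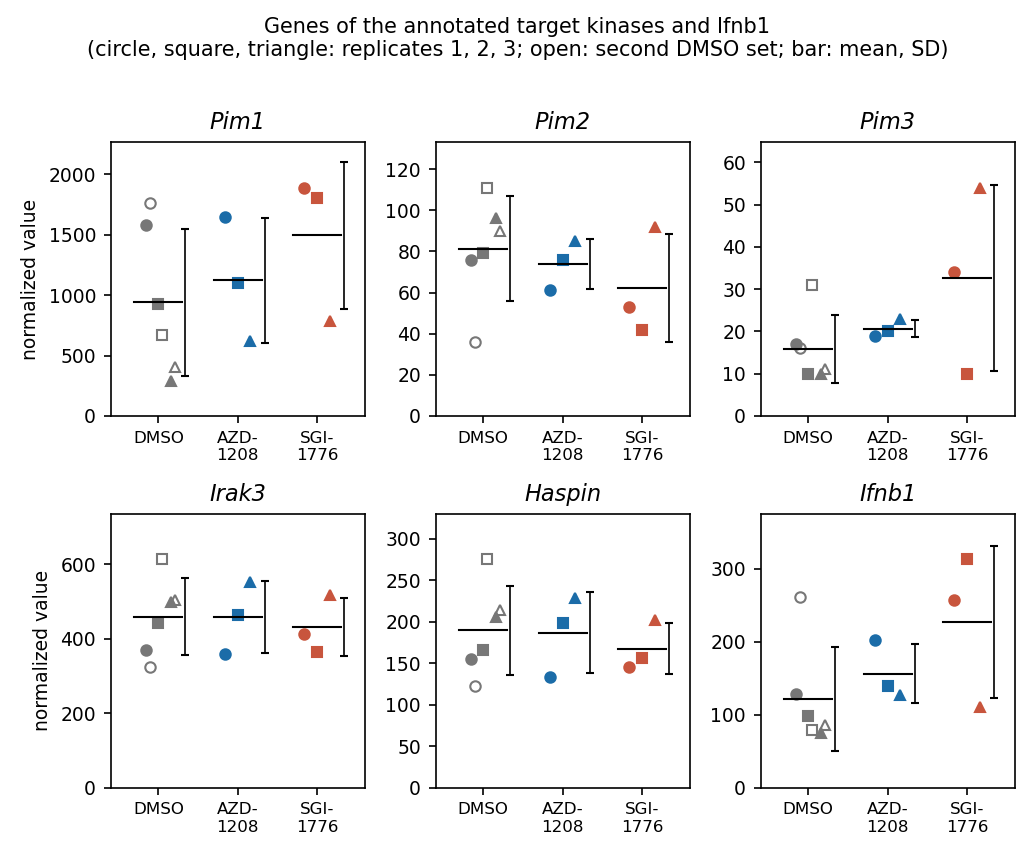
Normalized value (linear axis from 0) of Pim1, Pim2, Pim3, Irak3, Haspin and Ifnb1 in each DMSO, AZD-1208 and SGI-1776 sample, with mean and SD beside the points and replicate numbers shown by symbol. The groups overlap for each of the 6 genes, and in DMSO Pim1 alone spans 287 to 1762.

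By the threshold used, 4 transcripts were lower with AZD-1208 and none was higher, and calls here and below are those of the fit of all groups without a replicate block unless another setting is named. Of 12714 genes with a mean value of at least 10, limma called 4 lower (0.0315% of those tested) and 0 higher (0.0%) at an adjusted p under 0.05, while 1048 had an unadjusted p under 0.05. Rell1, a membrane protein related to the TNF receptor family member RELT (chr5:63908898-63968897, mm10), was at 173, 203 and 203 with AZD-1208 and 271 to 368 with a median of 318.5 with DMSO, so every treated sample lay below every DMSO sample. Its log2 difference was -0.71 ± 0.15 (SE; adjusted p = 0.0459), and SGI-1776 samples were at 288, 244 and 272, with a difference of -0.24 ± 0.15 (adjusted p = 0.409). Tspyl1, a nucleosome assembly protein relative (chr10:34282190-34284885), was at 822, 809 and 1026 against 1350 to 1796 with a median of 1540.5 in DMSO, also without overlap. It fell by 0.82 on the log2 scale with AZD-1208 (adjusted p = 0.0459), and was at 1487, 966 and 1535 in SGI-1776, where replicate 2 alone was below DMSO. The remaining calls, Fam177a and Fam177a2 (-0.92 for Fam177a), are near-identical copies whose reads cannot be told apart, and Fam177a overlapped the DMSO range at 2008, 2621 and 3673 against 3629 to 6569 with a median of 5173.5.

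Without any of DMSO set 1 replicate 1, set 1 replicate 3 or set 2 replicate 2, or of AZD-1208 replicates 1 and 2, no gene was called for AZD-1208, and without DMSO set 2 replicate 3 the count was 1. No gene was called either when the fit held only the groups compared or against the first DMSO set alone, with 715 and 768 at an unadjusted p under 0.05. Against the second DMSO set alone the 4 calls were lost and 2 other genes, Jmjd7 and Gm28042, were called, both higher. AZD-1208 and DMSO samples with the same replicate number deviated together. With the number as a block shared by all groups 24 genes were called, 13 higher and 11 lower. Rell1 (adjusted p = 0.00342) and Tspyl1 (adjusted p = 0.0271) were among the lower genes, together with the interferon regulatory factor gene Irf8 (-1.33, adjusted p = 0.0321), Sco1, a copper chaperone of cytochrome c oxidase (-0.73, adjusted p = 0.0356), and Sertad2, a transcriptional coregulator (-0.43, adjusted p = 0.0356). Higher genes included the ribosomal protein gene Rpl28 (0.36, adjusted p = 0.0469) and the histone gene H4c9 (0.62, adjusted p = 0.048). Of all genes tested, 3.45% had every AZD-1208 sample above all 6 DMSO samples and 0.842% had every one below.

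By the threshold used, SGI-1776 raised Rpl27a, a gene of the large ribosomal subunit, and lowered none, but after rescaling each sample by the median of its ratios Rpl27a was not called (adjusted p = 0.211) and neither was any other gene. Rpl27a (chr7:109519195-109522369) was at 1003, 1298 and 1183 with SGI-1776, 990, 954 and 1008 with AZD-1208 and 822 to 867 with a median of 838.5 in DMSO, and all 6 treated samples were above all DMSO samples. Its log2 difference under SGI-1776 was 0.46 ± 0.09 (SE; limma, adjusted p = 0.0393) and under AZD-1208 0.23 ± 0.09 (adjusted p = 0.509). It was the only gene called, 1 higher (0.00787%) and 0 lower (0.0%) of 12714, with 2251 at an unadjusted p under 0.05. Every SGI-1776 sample lay above all 6 DMSO samples for 4.11% of genes and below for 1.14%.

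The genes with the smallest p among those lower under SGI-1776 did not pass adjustment. Akt2, a kinase of insulin and growth factor signalling, was at 801, 820 and 793 against 892 to 1247 with a median of 979 in DMSO (-0.34 ± 0.09, adjusted p = 0.1). In the comparison of both compounds with DMSO below, Akt2 was called lower (limma, -0.29, adjusted p = 0.0474). Bcl10, an adaptor that couples receptors to NF-κB, was at 2685, 2272 and 2548 against 2937 to 3174 with a median of 3015 (-0.28 ± 0.08, adjusted p = 0.1). For both genes every SGI-1776 sample was below every DMSO sample. The count depended on the libraries described above. Without SGI-1776 replicate 3, the library with a low mitochondrial share, 888 genes were called for SGI-1776, 862 higher and 26 lower. Without SGI-1776 replicate 2, or without any of DMSO set 1 replicates 1 and 2 or set 2 replicates 2 and 3, no gene was called. The count was also 0 when the fit held only the groups compared or against either DMSO set alone. Without DMSO set 2 replicate 1 the call of Rpl27a was lost and 1 other gene was called, and without SGI-1776 replicate 1 or DMSO set 1 replicate 3 the count was 2, Rpl27a included. Rpl27a had an adjusted p of 0.0329 without SGI-1776 replicate 3 and 0.765 without SGI-1776 replicate 2.

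With the compounds combined, 15 of 75 ribosomal protein genes, 4 of 6 histone H4 genes and Id3 were called higher than in DMSO and Irf8 was called lower, and of these Irf8 alone was still called after rescaling each sample by the median of its ratios. The comparison set the average of the AZD-1208 and SGI-1776 group means against DMSO, with which the comparisons for each compound share all DMSO samples. Of 12714 genes, 76 were called higher (0.598%) and 8 lower (0.0629%), with 2431 at an unadjusted p under 0.05. The higher genes held 15 ribosomal protein genes, 22 pseudogenes and 4 of 6 tested histone H4 genes, and 52 of the 76 had all 6 treated samples above all 6 DMSO samples. By that criterion alone, 1.55% of all genes lay above DMSO and 0.417% below. The median log2 difference over all genes was 0.101 here, 0.103 for AZD-1208 and 0.101 for SGI-1776, so values just above 0 are close to the centre of the distribution. The rescaling brought that median to 0.00487 and changed the calls to 2 higher and 12 lower, of which 10 were among the 84. No gene was called when the fit held only the groups compared, or against either DMSO set alone, where 1725, 1450 and 1749 had an unadjusted p under 0.05.

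Rpl28, of the large subunit (chr7:4792965-4794547), had the smallest p of the ribosomal protein genes. It was at 2812, 3018 and 2891 in AZD-1208, 2801, 3236 and 3010 in SGI-1776 and 2180 to 2340 with a median of 2272.5 in DMSO, with a log2 difference of 0.38 ± 0.07 (SE; adjusted p = 0.00998, and 0.0652 after rescaling). Rps26, of the small subunit, was at 6514, 6364 and 6046 in AZD-1208 and 6277, 7859 and 6360 in SGI-1776, against 4747 to 5405 with a median of 4983 (0.38 ± 0.08, adjusted p = 0.0371). Neither gene's treated samples overlapped the DMSO samples. Rpl35, Rpl27a and Rpl12 were higher by 0.39, 0.34 and 0.45 in log2, with adjusted p from 0.0371 to 0.0463. After rescaling, the calls of Rps26 (adjusted p = 0.081), Rpl35, Rpl27a and Rpl12 (0.0981 to 0.0989) were lost too. Ribosomal protein genes and their pseudogenes share sequence, so reads may have been split between them.

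Over the 75 ribosomal protein genes tested, the median log2 difference from DMSO was 0.31 for AZD-1208, 0.53 for SGI-1776 and 0.42 for both. All 75 were above 0 in each comparison, beside 67.6%, 63.5% and 67.0% of all genes. The test called 0 of them higher for AZD-1208, 1 for SGI-1776 and 15 for both, where it called 0.0%, 0.00787% and 0.598% of all genes. All treated samples were above all DMSO samples for 22 genes with AZD-1208, 36 with SGI-1776 and 19 with both, beside 3.45%, 4.11% and 1.55% of all genes. After rescaling, the medians were 0.22, 0.42 and 0.32, and without AZD-1208 replicate 1 that of AZD-1208 was 0.195. These genes took 3.063%, 2.776% and 2.589% of the total in AZD-1208, 2.77%, 3.291% and 2.918% in SGI-1776 and 2.037% to 2.45% in DMSO. Against the other 56 CKIs, which do not involve DMSO, the median was -0.00 for AZD-1208 and 0.22 for SGI-1776 (0.08 without SGI-1776 replicate 2), with no gene of the list called.

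Id3, an inhibitor of basic helix-loop-helix transcription factors (chr4:136143822-136145392), was at 1488, 1219 and 1684 in AZD-1208, 1324, 1441 and 1635 in SGI-1776 and 579 to 1035 with a median of 853 in DMSO, all treated samples above all DMSO samples. The log2 difference was 0.83 ± 0.20 (SE; adjusted p = 0.0371), made up of 0.82 for AZD-1208 and 0.83 for SGI-1776. H4c9, a gene of the core histone H4, was at 419, 457 and 458 in AZD-1208, 422, 536 and 420 in SGI-1776 and 241 to 369 with a median of 272.5 in DMSO, again without overlap (0.64 ± 0.16, adjusted p = 0.0463). H4c11, H4c17 and H4c12 were higher by 0.71, 0.71 and 0.70. Histone H4 genes encode the same protein from similar sequences, and most of their transcripts lack the poly(A) tail on which these libraries were selected. Uxt, a prefoldin-like chaperone (0.52), Pafah1b3, a catalytic subunit of a platelet-activating factor hydrolase (0.50), and Eif2b1, a subunit of the exchange factor for translation initiation (0.49), completed the named rises. After rescaling, adjusted p was 0.0652 for Id3, 0.0659 to 0.081 for the H4 genes and 0.0847 to 0.0894 for Uxt, Pafah1b3 and Eif2b1, so that none was called. Outside the naming rule, and chosen after its values were seen, the macrophage elastase gene Mmp12 was at 827, 851 and 861 in AZD-1208, 1223, 1349 and 564 in SGI-1776 and 318 to 594 with a median of 414.5 in DMSO (1.12 ± 0.26, adjusted p = 0.0371), with SGI-1776 replicate 3 inside the DMSO range. Its call held after rescaling (adjusted p = 0.0414). Slpi, a protease inhibitor gene chosen in the same way, was low, at 44, 37 and 29 in AZD-1208, 50, 46 and 28 in SGI-1776 and 7 to 39 with a median of 11 in DMSO (1.5 ± 0.37, adjusted p = 0.0376). Its groups overlapped and rescaling ended its call (adjusted p = 0.0652).

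Irf8, a transcription factor of the myeloid lineage that also drives interferon and antigen presentation genes (chr8:120736358-120756694), fell most of the 8 genes called lower. It was at 1555, 2172 and 1958 in AZD-1208, 2608, 2538 and 2515 in SGI-1776 and 3680 to 7541 with a median of 4478 in DMSO. All 6 treated samples were below the lowest DMSO sample, and the DMSO samples themselves spread widely, with set 2 replicate 2 the highest. The difference was -1.11 ± 0.25 in log2 for both (SE; adjusted p = 0.0371), -1.33 ± 0.31 for AZD-1208 (adjusted p = 0.0764) and -0.88 ± 0.31 for SGI-1776 (adjusted p = 0.144). Rescaling left it at -1.20 for both (adjusted p = 0.0239). The group means of the other 56 CKIs ran from 1004 to 5215 with a median of 2528, and against them Irf8 differed by -0.16 ± 0.18 (adjusted p = 0.994). Sco1 was at 112, 120 and 164 in AZD-1208, 147, 160 and 158 in SGI-1776 and 195 to 240 with a median of 219.5 in DMSO (-0.61 ± 0.14, adjusted p = 0.0371). Sertad2 and Rnf114, a ubiquitin ligase, fell by 0.36 and 0.45 on the log2 scale, and the calls of Sco1, Sertad2 and Rnf114 held after rescaling (adjusted p = 0.0226 to 0.0447). The remaining lower calls were Fam177a and Fam177a2 (-0.69 each), Rell1 (-0.48) and Akt2 (-0.29), with adjusted p from 0.0371 to 0.0474 before rescaling.

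The promoter of Irf8 is shown because this gene fell most of those called. The sequence is the 250 bases before the first of its 2 annotated starts, from RefSeq (GRCm38.p6, chr8:120736108-120736357, plus strand), with matches to TTCNNNGAA, the palindrome bound by STAT dimers, in capitals.
Irf8: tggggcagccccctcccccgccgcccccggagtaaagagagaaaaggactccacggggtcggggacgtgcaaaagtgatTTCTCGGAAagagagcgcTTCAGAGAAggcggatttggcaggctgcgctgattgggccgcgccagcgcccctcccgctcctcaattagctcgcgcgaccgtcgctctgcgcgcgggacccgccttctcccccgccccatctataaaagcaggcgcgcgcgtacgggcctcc
The search covered both strands, on which this palindrome reads alike, and found 2 matches, whose first bases were 171 and 153 bases before the start. Of 32851 promoters of this length, 7.02% held the motif. The letters were chosen after the sequence was seen, and a match is a description of the sequence, not evidence of binding.

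The 84 calls for both compounds rested on most of the libraries. Without SGI-1776 replicate 2 no gene was called, without any of AZD-1208 replicate 1, DMSO set 1 replicate 2 and set 2 replicates 2 and 3 the count was 1, and without AZD-1208 replicates 3 and 2 it was 10 and 12. It was 35, 46 and 54 without DMSO set 1 replicate 3, DMSO set 1 replicate 1 and SGI-1776 replicate 1, and 233 and 408 without DMSO set 2 replicate 1 and SGI-1776 replicate 3. Without SGI-1776 replicate 2 the adjusted p was 0.148 for Rpl28 and 0.154 for Irf8, at log2 differences of 0.36 and -1.10. The comparison of the second with the first DMSO set, which differ in no treatment, called 0 genes, with 310 at an unadjusted p under 0.05.

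**Figure D3:**
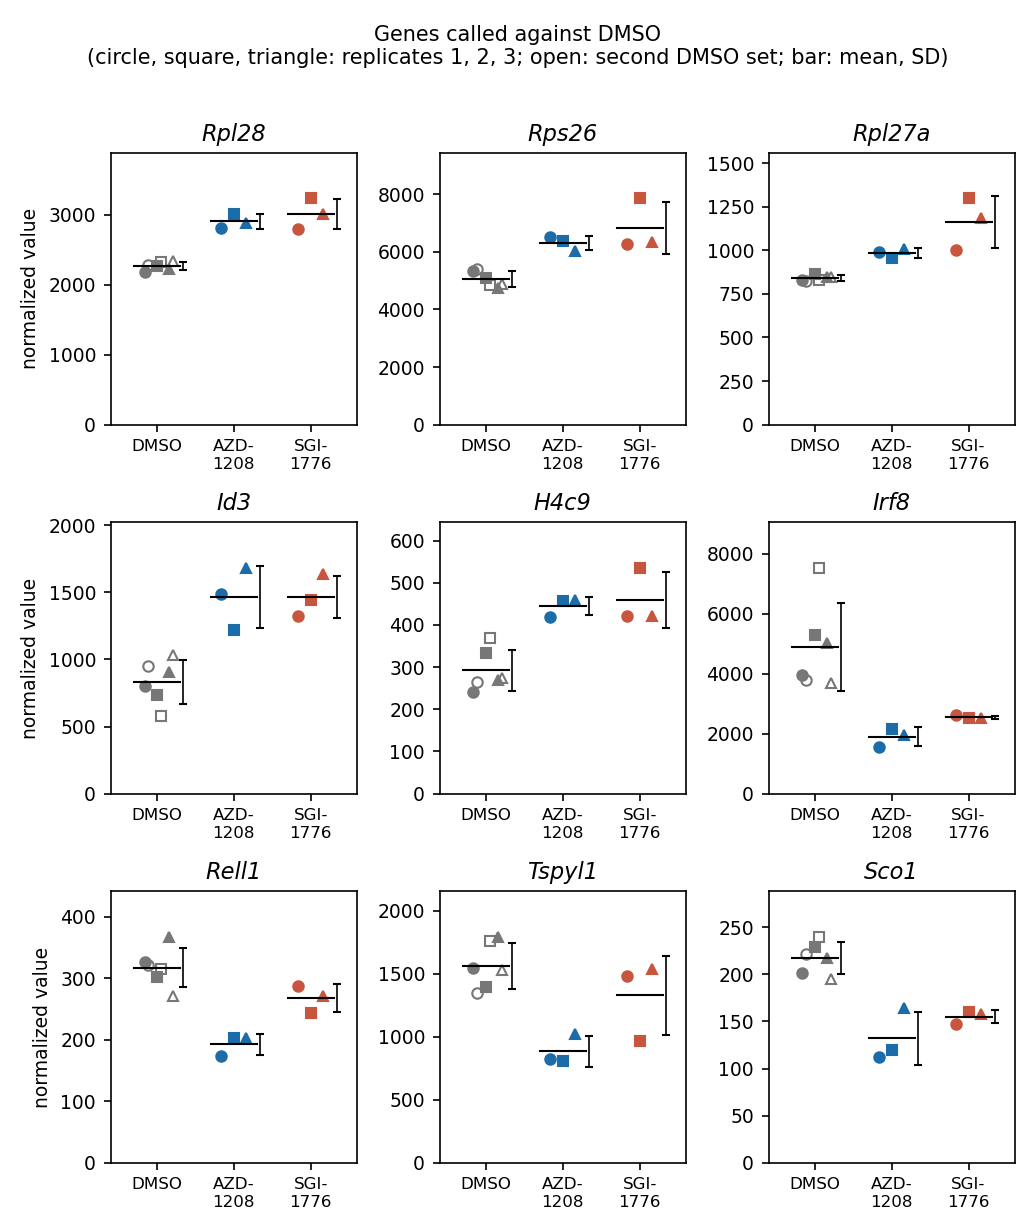
Normalized value (linear axis from 0) of 9 genes called for either compound or both, in each DMSO, AZD-1208 and SGI-1776 sample, with mean and SD beside the points and open symbols for the second DMSO set. The treated samples lie above DMSO for Rpl28, Rps26, Rpl27a, Id3 and H4c9 and below it for Irf8 and Sco1, while for Rell1 and Tspyl1 only the AZD-1208 samples are all below.

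Of the interferon-stimulated genes none was called for AZD-1208 or SGI-1776, and the levels of the list overlapped between the groups. Irf8, a member, was called for AZD-1208 with the replicate number as a block shared by all groups (adjusted p = 0.0321), after rescaling (0.0315), and with no filter on low values (0.0111). The mean log2 value of its 57 tested genes was 10.67, 10.72 and 10.24 in AZD-1208, 10.93, 11.34 and 9.961 in SGI-1776 and 10.24 to 11.39 in DMSO, so SGI-1776 replicate 3 was the lowest of the 12 samples and replicate 2 was near the highest. Within replicate numbers, AZD-1208 was below both DMSO samples for numbers 1 and 2 and level with the lower of them for number 3, with DMSO at 11.07 and 11.39 for number 1, 11.16 and 10.95 for number 2 and 10.24 and 10.49 for number 3. Of the 57 genes, 51 were below 0 with AZD-1208, with a median log2 difference of -0.35, and 35 were below 0 with SGI-1776, with a median of -0.17. Of all genes, 67.6% and 63.5% were above 0 in these comparisons. The AZD-1208 median was between -0.51 and -0.17 in the alternatives tried. The SGI-1776 median was -0.32 without SGI-1776 replicate 1, -0.47 without replicate 2 and 0.36 without replicate 3, so its sign depended on replicate 3. All samples lay below all DMSO samples for 2 of the 57 genes with AZD-1208 and for 4 with SGI-1776, beside 0.842% and 1.14% of all genes. For both together the median was -0.33, and -0.04 without SGI-1776 replicate 3, and Irf8 was the gene called. The unadjusted p was under 0.05 for 19.3% of the list with AZD-1208 and 17.5% with SGI-1776, against 8.24% and 17.7% of all genes. After rescaling, the medians were -0.44, -0.28 and -0.43. Against the other 56 CKIs all 57 genes were below 0 for AZD-1208, with a median of -0.28 and none called, where 57.2% of all genes were above 0. For SGI-1776 the median was -0.10, which turned to 0.275 without SGI-1776 replicate 3. Without AZD-1208 replicate 3 the AZD-1208 median was -0.14.

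Cmpk2, a mitochondrial nucleotide kinase induced by interferon, was at 5853, 11502 and 8427 in AZD-1208, 6879, 9448 and 7839 in SGI-1776 and 10614 to 36530 with a median of 12808.5 in DMSO. SGI-1776 samples were all below DMSO, AZD-1208 replicate 2 was not, and the differences of -0.92 and -0.97 did not pass adjustment (adjusted p = 0.509 and 0.18). Irf1, a transcription factor induced by interferon, was at 7995, 10379 and 9117 in AZD-1208 and 9008, 10216 and 9162 in SGI-1776, against 10687 to 14275 with a median of 11919.5, without overlap but also not called (adjusted p = 0.163 for both). These genes and Tap1 (-0.53 for both), a peptide transporter of antigen presentation, were chosen after their values were seen, and all were lower. The 57 genes of the list ran from -1.33 to 0.19 for AZD-1208 and from -0.97 to 0.91 for SGI-1776, with 6 and 22 above 0. Rsad2, an antiviral enzyme, differed by -0.61 and -0.45 under AZD-1208 and SGI-1776. Cxcl10, the chemokine that attracts activated T cells, differed by -0.11 and 0.22.

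The JAK-STAT list had medians of -0.14 for AZD-1208 and -0.18 for SGI-1776 over 26 genes, with none called. They were -0.23 and -0.29 after rescaling, and the AZD-1208 median was -0.07 without AZD-1208 replicate 1. The unadjusted p was under 0.05 for 23.1% and 26.9% of the list, against 8.24% and 17.7% of all genes. Il10ra, the ligand-binding chain of the interleukin-10 receptor, was at 3235, 3912 and 3690 in AZD-1208, 3685, 3717 and 3623 in SGI-1776 and 4206 to 6167 with a median of 4847.5 in DMSO. All treated samples were below all DMSO samples, and its difference of -0.43 ± 0.12 for both missed the threshold (adjusted p = 0.0564). Socs3, a feedback inhibitor of cytokine receptors, differed by -0.13 and -0.28.

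No inflammatory gene of the TLR4 response was called, and members differed in both directions. The median was -0.04 for AZD-1208 and -0.00 for SGI-1776 over 37 NF-κB-dependent genes, and -0.02 and 0.04 over 34 genes of the TLR4 and IRAK pathway. After rescaling, these were at -0.13 and -0.11, and at -0.10 and -0.07, so that the SGI-1776 median of the pathway turned below 0. The SGI-1776 median of the NF-κB-dependent genes reached 0.18 in the alternatives tried. The NF-κB-dependent genes ran from -1.45 to 0.60 for AZD-1208 and from -1.08 to 0.88 for SGI-1776, the lowest being Nos2, the inducible nitric oxide synthase, and those of the pathway from -0.36 to 0.46 and from -0.40 to 0.83. All 6 treated samples were above DMSO for the chemokine gene Cxcl1 (0.34 for both) and below it for the adhesion molecule gene Icam1, and neither was called. These 3 genes were chosen after their values were seen. Ccl4, a chemokine of macrophages, was at 74296, 56423 and 49364 in AZD-1208 and 73103, 85815 and 61580 in SGI-1776, against 53159 to 83174 with a median of 59913 in DMSO. Nfkbia, which encodes the inhibitor of NF-κB, differed by -0.05 ± 0.09 and -0.14 ± 0.09 (SE). Cd14, the LPS co-receptor, differed by 0.04 and 0.32. Immediate-early genes had medians of 0.23 and 0.13 over 30 genes with none called, which ran from 0.06 to 0.27 and from -0.05 to 0.29 in the alternatives tried. Dusp1, a phosphatase that ends MAP kinase signalling, was at 15260, 13959 and 14539 and 20086, 14373 and 21494 within a DMSO range of 7541 to 27409.

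In the lists for processes that PIM kinases are known to act on, no gene was called for AZD-1208, SGI-1776 or both, apart from the ribosomal protein genes above. Eif2b1, which is outside these lists, was called for both. With the replicate number as a block, Ldha of the MYC list was called for both (limma, adjusted p = 0.0263). Nhp2 and Gmnn were called higher with AZD-1208 under the same block (adjusted p = 0.0271 each). Genes of MYC and ribosome biogenesis had medians of 0.24 for AZD-1208 and 0.17 for SGI-1776 over 36 genes, cap-dependent translation 0.20 and 0.11 over 27, the substrates of PIM kinases 0.21 and 0.09 over 23 and the BCL2 family 0.16 and 0.25 over 18, beside 0.10 over all genes. After rescaling, these were at 0.15 and 0.06, 0.11 and -0.00, 0.12 and -0.01, and 0.07 and 0.15, so that the SGI-1776 medians of cap-dependent translation and of the PIM substrates turned below 0. Single PIM substrate genes ran from -0.89 to 1.47 for AZD-1208 and from -0.34 to 1.5 for SGI-1776 before rescaling. All 6 treated samples lay above all DMSO samples for 1 of the 23, beside 1.55% of all genes, and below them for 0. Medians of MYC and ribosome biogenesis ran from 0.13 to 0.32 for AZD-1208 and from 0.03 to 0.31 for SGI-1776 in the alternatives tried. Ncl, a nucleolar protein of ribosome assembly, was at 2422, 2694 and 2772 in AZD-1208 and 2393, 2519 and 2834 in SGI-1776, against 2006 to 2651 with a median of 2231.5 in DMSO (0.18 ± 0.11 for both). Cdkn1a, the cell cycle inhibitor whose product PIM kinases phosphorylate, differed by -0.30 and 0.02, and Bcl2l11, a pro-apoptotic BCL2 relative, by -0.06 and -0.14. Cell cycle genes (0.19 and 0.18 over 35), FOXO targets (0.30 and 0.20 over 20) and snoRNA host genes (0.50 and 0.37 over 15) also held no call without the replicate block. After rescaling, their medians were 0.10 and 0.07, 0.21 and 0.10, and 0.41 and 0.28.

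The medians of p53 targets, NRF2 targets, ATF4 targets, glycolysis, RNA decay and splicing, and lysosome genes lay between 0.02 and 0.22 for each compound, beside 0.10 over all genes. None of these genes was called without the replicate block. After rescaling, lysosome genes were at -0.07 and -0.06. The SGI-1776 medians of p53 targets and glycolysis were then at -0.09 and -0.00. Macrophage identity genes had medians of 0.14 and 0.32 over 23 genes without rescaling. The former was -0.01 without AZD-1208 replicate 1 and the latter 0.16, 0.15 and 0.62 without SGI-1776 replicates 1, 2 and 3 in turn.

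Transcripts of the mitochondrial genome had medians of 0.48 for AZD-1208 and 1.27 for SGI-1776 over 15 genes, the latter the highest of the lists with over 1 gene tested, but no gene was called and no treated group lay wholly above DMSO for any of them. The SGI-1776 median was 0.78 without replicate 1, 0.82 without replicate 2 and 2.1 without replicate 3. COX1, a subunit of cytochrome c oxidase, was at 68668, 59001 and 11192 in SGI-1776, 26612, 21549 and 26435 in AZD-1208 and 11593 to 43361 with a median of 17587.5 in DMSO, so that SGI-1776 replicates 1 and 2 were the highest of the 12 samples and replicate 3 the lowest. Nuclear genes of the respiratory chain had medians of 0.19 and 0.29 over 54 genes, and of 0.11 and 0.19 after rescaling. For both compounds, 2 of the 54 were called higher, beside 0.598% of all genes. They were Ndufa8 (0.33 ± 0.09 for both, adjusted p = 0.0491) and Ndufb7 (0.43 ± 0.12, adjusted p = 0.0496), subunits of complex I, and neither was called after rescaling (adjusted p = 0.152 and 0.131). Ndufa8 was at 1236, 1069 and 1005 in AZD-1208, 1072, 1269 and 1082 in SGI-1776 and 786 to 984 with a median of 902 in DMSO, without overlap.

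**Figure D4:**
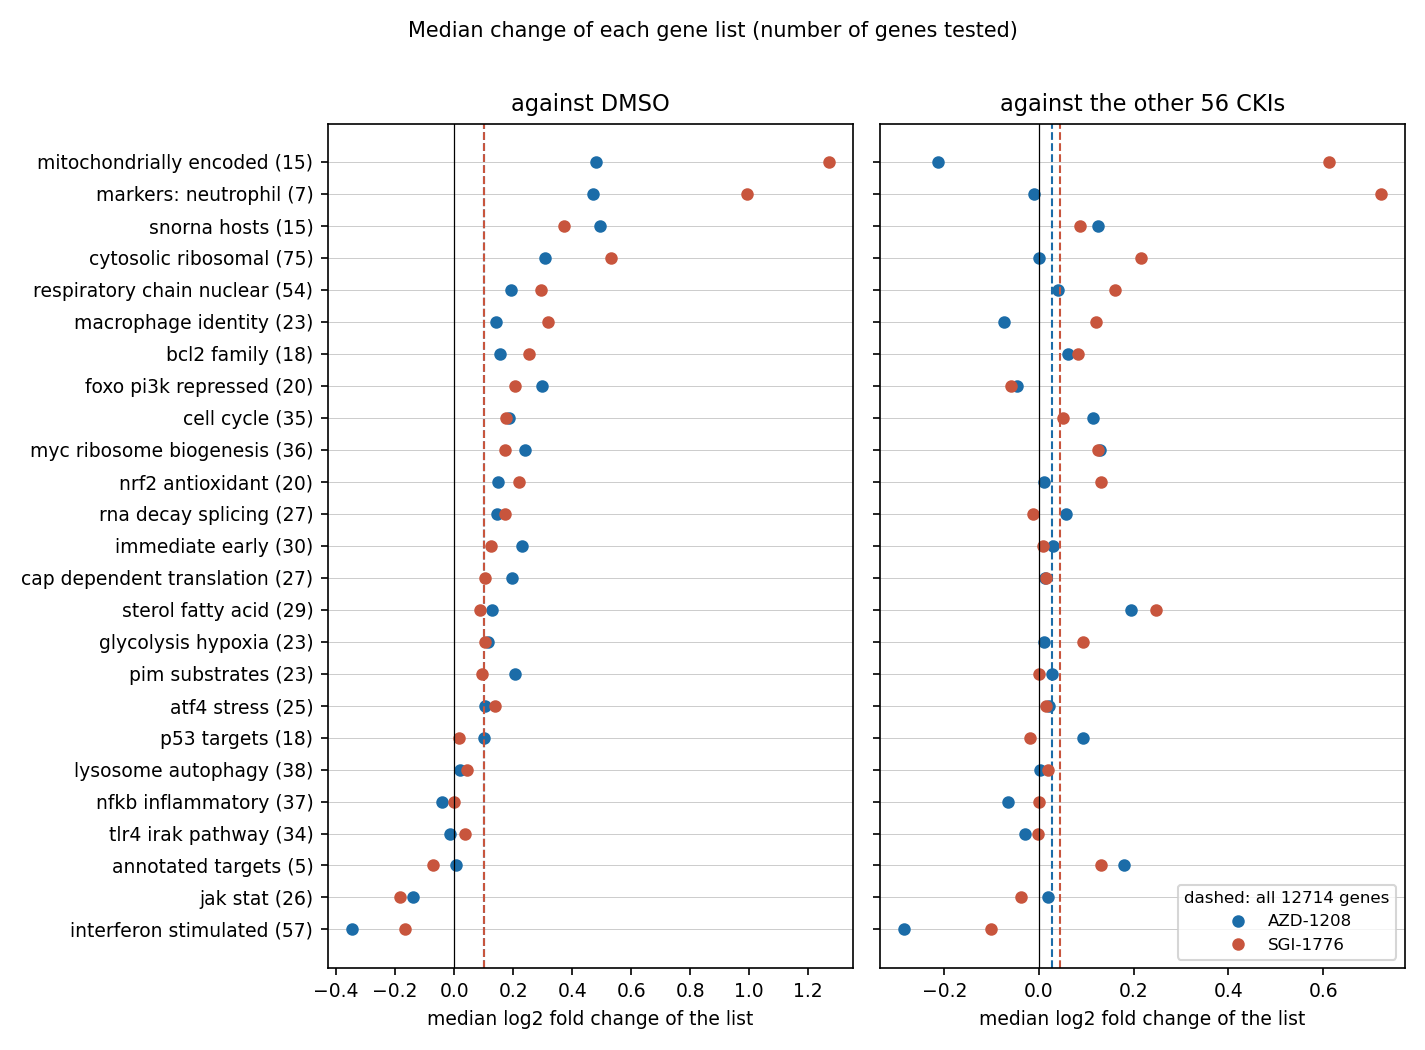
Median log2 fold change of gene lists (number of genes tested in brackets) for AZD-1208 (blue) and SGI-1776 (red), against DMSO on the left and against the other 56 CKIs on the right, with dashed lines for the median over all 12714 genes. Lists with at least 5 genes tested are drawn, and against DMSO they run from interferon-stimulated genes, at -0.35 for AZD-1208, to mitochondrially encoded transcripts, at 1.27 for SGI-1776.

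Set against the other 56 CKIs rather than DMSO, both compounds together had higher levels of 2 sterol synthesis genes, Cyp51 and Msmo1, of the 29 sterol and fatty acid genes tested. These were the only genes called of 12714 (0.0157%), and after rescaling neither was (adjusted p = 0.104 each). None was called for AZD-1208 (0.0%, 274 at an unadjusted p under 0.05) or SGI-1776 alone (0.0%, 505 at an unadjusted p under 0.05). Cyp51, the lanosterol demethylase, was at 970, 1188 and 1232 in AZD-1208 and 1054, 1011 and 1213 in SGI-1776, while group means of the other CKIs ran from 248.3 to 1220 with a median of 944.3. The log2 difference from those groups was 0.35 ± 0.07 (SE; limma, adjusted p = 0.017). Msmo1, the sterol methyl oxidase, was at 1430, 1339 and 1408 and 1403, 1405 and 1208, against 283 to 1412 with a median of 1182 (0.32 ± 0.06, adjusted p = 0.017). Both genes overlapped DMSO, at 999 to 1280 with a median of 1224.5 for Cyp51 and 944 to 1429 with a median of 1344.5 for Msmo1, from which they differed by -0.11 and 0.10.

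The level of the 29 tested sterol and fatty acid genes, the mean of log2 values per group, was higher in AZD-1208 than in all 57 other CKI groups and higher in SGI-1776 than in 55 of them. The medians against the other 56 CKIs were 0.20 for AZD-1208 and 0.25 for SGI-1776, beside 0.03 and 0.04 over all genes, and after rescaling 0.17 and 0.21. Before rescaling, 28 and 24 of the 29 genes were above 0, beside 57.2% and 61.2% of all genes. Against DMSO the medians were 0.13 and 0.09, beside 0.10 over all genes. After rescaling, those against DMSO were 0.04 and -0.02, so the SGI-1776 median turned below 0. Scd2, a fatty acid desaturase named after its values were seen, differed from the other CKIs by 0.84 for AZD-1208 and 0.51 for SGI-1776, and was not called. The calls of Cyp51 and Msmo1 also depended on libraries. No gene was called without AZD-1208 replicate 3 or SGI-1776 replicate 1. Without AZD-1208 replicate 2 both calls were lost and 1 other gene, a lower one, was called. Without AZD-1208 replicate 1 or SGI-1776 replicate 2 Cyp51 kept its call and Msmo1 did not, and without SGI-1776 replicate 3 Msmo1 kept it and Cyp51 did not.

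**Figure D5:**
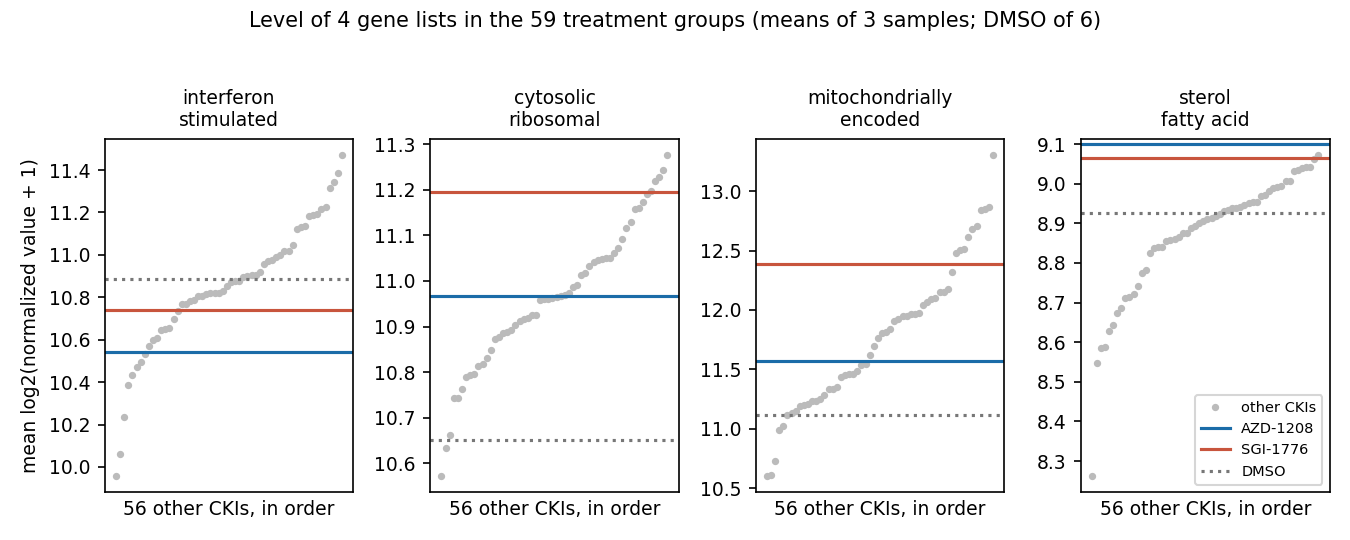
Level of 4 gene lists, the mean log2(normalized value + 1) of the genes, in AZD-1208 (blue line), SGI-1776 (red line), DMSO (dotted line) and the other 56 CKIs in rising order (grey points), each the mean of its samples. AZD-1208 stands above all other groups for sterol and fatty acid genes, SGI-1776 above 52 of the other 57 CKIs for ribosomal protein genes, and AZD-1208 above 8 of them for interferon-stimulated genes.

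The promoters of Cyp51 and Msmo1 are shown because these genes passed the test against the other CKIs. Each is the 250 bases before the annotated start, from RefSeq GRCm38.p6, on the minus strand at chr5:4104698-4104947 for Cyp51 and chr8:64733579-64733828 for Msmo1, read 5′ to 3′. Capitals mark TCACNNCA, a form of the sterol regulatory element, and CCAAT, the box bound by NF-Y, searched on both strands.
Cyp51: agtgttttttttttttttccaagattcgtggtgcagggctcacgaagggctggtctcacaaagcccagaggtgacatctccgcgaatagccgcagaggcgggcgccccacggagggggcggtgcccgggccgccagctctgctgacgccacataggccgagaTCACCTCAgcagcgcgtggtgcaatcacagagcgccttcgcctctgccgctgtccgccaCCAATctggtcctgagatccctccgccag
Msmo1: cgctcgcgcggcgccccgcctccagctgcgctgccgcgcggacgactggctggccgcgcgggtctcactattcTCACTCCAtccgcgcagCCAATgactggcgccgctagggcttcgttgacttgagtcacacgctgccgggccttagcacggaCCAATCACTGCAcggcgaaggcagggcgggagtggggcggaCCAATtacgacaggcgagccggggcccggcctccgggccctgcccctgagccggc
TCACNNCA was found at 1 position in Cyp51, its first base 88 bases before the start, and at 2 in Msmo1, at 177 and 92. CCAAT was found at 29 bases in Cyp51 and at 160, 96 and 55 in Msmo1, where the middle copy overlaps a TCACNNCA match. Of 32851 promoters, 11.4% held the first motif and 33.8% the second, and the letters were chosen after the sequences were seen.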

How the data were processed

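RNA was from polyA libraries made by SMART-seq2. According to the submitters' processing notes, the authors used TopHat2 2.1.1 with mm10, bedtools 2.29.2, DESeq2 and R 3.6.2. Per the study's methods, reads were mapped with at most 1 alignment reported each, counted per RefSeq gene and scaled on invariant genes; whether reads with several equal matches were removed from these libraries is not given in the sources used here. The deposited values are therefore a normalized score per gene, rounded to whole numbers, and not raw counts; whether counting used strand is not given in the sources used here, so overlapping and antisense genes cannot be told apart. The deposited table held 45070 genes.

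Genes with a mean of at least 10 over all 180 samples (12714) were tested on log2(value + 1) with limma 3.58.1 (R 4.3.3) with a variance trend, in a single fit of 59 groups. Fold changes are on that scale and understate changes of low genes. Benjamini-Hochberg adjustment ran over all genes tested, with a threshold of 0.05. Both DMSO sets were the reference, since the labels do not tie a set to a compound. Mitochondrial share and total were tested by 2-sided exact permutation. The fit was tested on simulated data.

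Named genes were the 10 largest rises and falls called without overlap with DMSO at a mean of at least 50 (otherwise the 5 with the smallest p), the target kinases, Ifnb1, and up to 4 called or 2 abundant members of each list; exceptions are marked, and a few genes that the rule names are not reported here. Members and gene lists were chosen with earlier results of these data known. Samples of AZD-1208 and DMSO with the same replicate number deviated together (6 correlations, 0.202 to 0.655), and those of SGI-1776 and DMSO did not (-0.448 to 0.585). AZD-1208 and DMSO samples with different numbers correlated at -0.61 to 0.424. The labels do not state a pairing, and the block was the replicate number as a factor shared by all 59 groups. Replicates are described as independent, but nothing names their animals. Alternatives were another pseudocount, filter, scaling, variance model, set of groups, DMSO set or replicate block, and leaving out each sample.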

Additional observations from a re-analysis of the deposited data

Results flagged for a closer look

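Of 134 genes, gene list levels and library measures examined over the 6 DMSO samples, 11 had a sample far from the other five, where chance alone gives about 1 in 20. The gap to the nearest sample as a share of the range was 0.711 for Ifnb1, the interferon-β gene (262 in set 2 replicate 1 against 129 for the next), 0.703 for the neutrophil granule gene Ngp (370 in the same sample against 162), 0.719 for the protease inhibitor gene Slpi (39 against 16) and 0.661 for the level of the BCL2 family (8.722 against 8.471, mean log2 value). The same sample was lowest for Cyp51, with a share of 0.712 (999 against 1199). DMSO set 2 replicate 2 was highest for the collagen gene Col1a1 (0.644; 98 against 42) and for Pim3 (0.667; 31 against 17), and lowest for the ribosomal protein gene Rplp0 (0.672; 11690 against 13960) and for the level of the B cell markers (0.683; 0 against 3). DMSO set 1 replicate 3 was lowest for Bcl2l11 (0.715; 5795 against 6770) and for the level of p53 targets (0.721; 7.725 against 7.836).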

How the results depend on the processing

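The counts of changed genes depended on the processing, in the order AZD-1208, SGI-1776 and both against DMSO, which were 4, 1 and 84. They were 0, 0 and 7 at a fold of at least 2, 113, 133 and 12 with no filter on low values, 9, 0 and 14 after median-of-ratios scaling, 0, 2 and 49 without a variance trend, and 0, 0 and 0 when each fit held no other groups. With the replicate number as a block they were 24, 223 and 623, and with the mitochondrial share in the same fit 34, 0 and 113. Against the first DMSO set alone they were 0, 0 and 0, and against the second 2, 0 and 0. A pseudocount of 10 gave 43 for both compounds. Leaving out each sample gave 0 to 4, 0 to 888 and 0 to 408. Against the other 56 CKIs, no filter gave 161, 178 and 128 genes in place of 0, 0 and 2. For both compounds, a fold of at least 2 and median-of-ratios scaling gave 0, the replicate block 12 and the block with the mitochondrial share 28. Leaving out a sample gave 0 to 1, 0 to 0 and 0 to 2.

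Samples with the same number correlated at 0.311 on average over 18 pairs and those with different numbers at -0.159 over 36, but the pairing did not hold for SGI-1776, so the block results for it and for both compounds describe a shared number and not a design. All 33 called gene results kept their direction in every alternative, and none kept its call in all of them, while 117 of the 176 that were not called kept their direction throughout. The cause of these changes was not tested. Depth limits low genes such as Pim3 and Flt3.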
